A study of Caenorhabditis elegans with 2 samples.

Results

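Chromatin immunoprecipitation and sequencing (ChIP-seq) candidates of UNC-62 that lie beside snoRNA and snRNA genes are described here as 2 classes. A candidate was taken when its summit, the base of highest signal in the peak, lay within 500 bp of a WBcel235 gene with the Ensembl biotype snoRNA or snRNA, on the pooled list of build ce11. The rule was met by 265 of 28005 pooled candidates, of which 209 lay beside a snoRNA gene and 58 beside a snRNA gene, with 2 counted in both classes. The snRNA class includes the sls-2 genes, taken by their symbol, which were the nearest snRNA gene of 18 members. Other snRNA genes were nearest to the remaining 40. The worms were whole L2 larvae of Caenorhabditis elegans, males and females pooled, of strain OP600, which has the allele unc119(ed3) and an integrated transgene, wgIs600, of unc-62 fused to TY1, EGFP and FLAG and carrying unc119. Both libraries, from separate biological replicates, are of this 1 group, and no second genotype, stage or treatment was compared. The binding measured is that of the tagged protein in all tissues at once, and the transgenic strain is a single line.

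UNC-62 is the worm's MEIS-type homeodomain factor, and such factors work with PBC and Hox partners. Small nucleolar RNAs guide chemical modification of ribosomal and other RNAs, and in nematodes many are encoded inside introns of protein-coding genes and released when the host transcript is spliced, while others have promoters of their own. Small nuclear RNAs are the RNA core of the spliceosome and are transcribed from short promoters of their own, recognised by the SNAPc complex at a proximal sequence element upstream of the gene. The sls-2 genes make the SL2 RNA, which donates its spliced leader to the downstream genes of operons by trans-splicing.

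The sls-2 genes are shown first because the highest members of the snRNA class lay on them. Each line gives 80 bases upstream of the gene and its first 22 bases, the spliced leader, in capitals, read 5′ to 3′ on the strand of the gene from WBcel235 (ce11). The stretches are sls-2.1 from chrII:5844785-5844886 (plus strand), sls-2.2 from chrII:5543518-5543619 (plus strand), sls-2.8 from chrIII:12250385-12250486 (plus strand) and sls-2.16 from chrIII:7141311-7141412 (plus strand).
sls-2.1: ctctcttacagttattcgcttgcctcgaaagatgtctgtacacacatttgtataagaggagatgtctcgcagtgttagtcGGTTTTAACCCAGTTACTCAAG
sls-2.2: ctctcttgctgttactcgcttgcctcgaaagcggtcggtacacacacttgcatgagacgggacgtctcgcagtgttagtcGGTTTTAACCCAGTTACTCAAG
sls-2.8: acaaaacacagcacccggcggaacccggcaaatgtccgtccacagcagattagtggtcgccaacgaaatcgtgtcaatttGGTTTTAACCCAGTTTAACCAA
sls-2.16: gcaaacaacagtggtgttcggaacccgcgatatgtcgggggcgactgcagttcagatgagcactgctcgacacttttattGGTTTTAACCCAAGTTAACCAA
The first 22 bases of sls-2.1 and sls-2.2 were identical, and their 80 upstream bases matched at 85.0% of positions. The upstream bases of sls-2.8 and sls-2.16 matched those of sls-2.1 at 36.2% and 38.8% of positions, and their leaders matched at 17 and 15 of 22 bases.

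A second set of sequences shows letters that recurred upstream of snoRNA members. The capitals mark ACCCG and, 6 bases further on, GTCNG (N is any base), called the paired letters below. The lines give 90 bases upstream and the first 10 bases of each snoRNA gene among 7 of the 11 members with them, ordered by the rank of its summit. The stretches are ZK994.7 from chrV:8500489-8500588 (plus strand), Y53F4B.47 from chrII:15025884-15025983 (minus strand), C16D9.11 from chrV:8228960-8229059 (minus strand), W04D2.7 from chrV:12491190-12491289 (plus strand), C07A9.14 from chrIII:9717290-9717389 (plus strand), F01D5.12 from chrII:14018432-14018531 (minus strand) and T19C4.12 from chrV:11175697-11175796 (minus strand).
ZK994.7: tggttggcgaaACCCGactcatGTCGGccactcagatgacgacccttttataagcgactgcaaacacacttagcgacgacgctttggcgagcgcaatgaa
Y53F4B.47: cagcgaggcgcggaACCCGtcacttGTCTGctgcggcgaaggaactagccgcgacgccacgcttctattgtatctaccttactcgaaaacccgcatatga
C16D9.11: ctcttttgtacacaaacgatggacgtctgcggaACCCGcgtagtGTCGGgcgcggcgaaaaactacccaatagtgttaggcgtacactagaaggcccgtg
W04D2.7: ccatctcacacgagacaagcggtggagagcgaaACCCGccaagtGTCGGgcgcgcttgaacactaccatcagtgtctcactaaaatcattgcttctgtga
C07A9.14: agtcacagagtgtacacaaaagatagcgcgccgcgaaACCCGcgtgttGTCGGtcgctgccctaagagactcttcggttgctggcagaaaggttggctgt
F01D5.12: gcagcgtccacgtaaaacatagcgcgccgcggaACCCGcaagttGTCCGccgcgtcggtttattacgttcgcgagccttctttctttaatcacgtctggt
T19C4.12: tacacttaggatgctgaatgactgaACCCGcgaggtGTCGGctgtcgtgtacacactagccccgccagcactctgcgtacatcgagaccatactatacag
In these snoRNA genes and in sls-2.8 and sls-2.16 above, the same letters stood at a similar place before the gene. The snoRNA member of rank 425 has them upstream of its gene too but is not shown. For that of rank 3239, also not shown, they lie outside the 100 bp upstream of its gene. Over all RNA genes with the paired letters in the 100 bp upstream, the first letter stood 53 to 79 bases before a snoRNA gene (median 59) and 54 to 66 bases before a snRNA gene (median 58). The letters were picked after upstream sequences of members had been read, so their counts below are descriptions.

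The snoRNA class as a whole ranked above the middle of the pooled list. Its median signal, the value deposited by the authors for each peak, was 10.9 (quartiles 8.42 and 16.0), against 9.02 (7.71 and 11.2) for all pooled candidates. The median rank was 7654 of 28005, where rank 1 is the highest signal. Within ranks 1 to 2000 lay 58 of 209 members (27.8%), against 7.14% of all pooled candidates, and 64 members (30.6%) lay in the lower part of the list below its midpoint. The members ran from rank 64 to rank 27510, so the class spans nearly the whole list.

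The snRNA class was less uniform. Its median signal of 8.43 (quartiles 7.50 and 12.3) was below the 9.02 of all pooled candidates, and its median rank was 16622.5. Within it, the 18 summits at sls-2 genes had a median signal of 10.2 and the 40 at other snRNA genes a median of 8.39. Even so, 10 of 58 members (17.2%) lay within ranks 1 to 2000, against 7.14% of all pooled candidates, and the highest, at sls-2.4, ranked 15. A few very high summits thus stood over a class of mostly low ones.

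**Figure D1:**
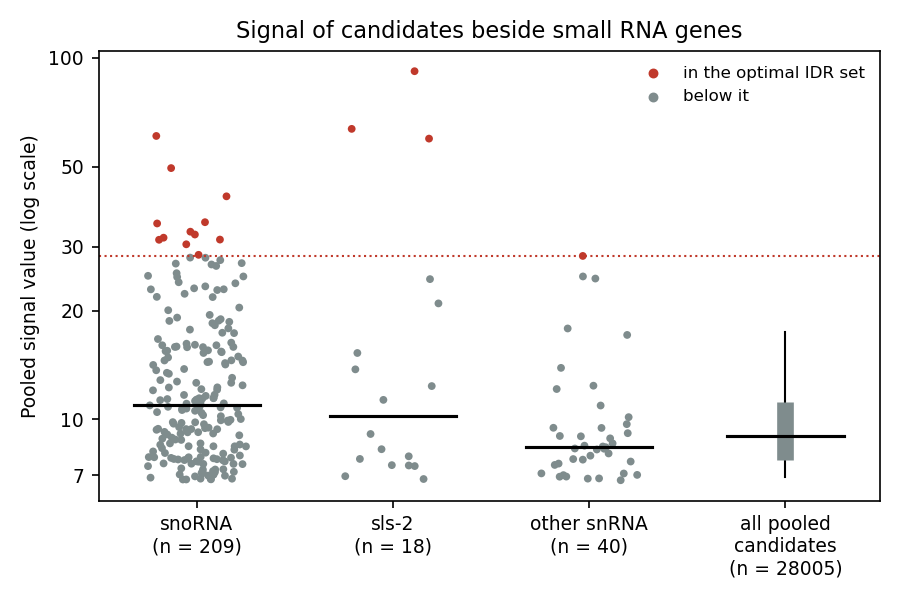
Pooled signal value (log axis) of each candidate beside snoRNA genes, sls-2 genes and other snRNA genes, with all pooled candidates at the right; points are candidates, the horizontal bars are medians, and the grey box and line on the right run from the 25th to the 75th and from the 5th to the 95th percentile. The dotted line is the lowest signal of the optimal set, 28.2, and 3 sls-2 summits lie far above it at 59.8, 63.6 and 91.9.

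In the optimal set of the irreproducible discovery rate (IDR) procedure, which compares the ranks of candidates between replicates, were 12 of 209 snoRNA members (5.74%, exact Clopper-Pearson 95% interval 3.00 to 9.82) and 4 of 58 snRNA members (6.90%, 1.91 to 16.7). Of all pooled candidates 1.48% were in that set. Since the set equals the top of the pooled list by signal, membership and rank are 1 measure and not 2. The set also holds candidates that the replicates ranked far apart, and 7 of its 414 had no overlapping candidate in replicate 2. A candidate in each replicate list overlapped 111 of 209 snoRNA members (53.1%, 46.1 to 60.0) and 25 of 58 snRNA members (43.1%, 30.2 to 56.8), against 30.9% of all pooled candidates. The intervals cover counting error only. In only 1 replicate list were 54 snoRNA members (replicate 1) and 36 (replicate 2), and 8 were in neither. Of the snRNA members, 16 were in replicate 1 only, 9 in replicate 2 only and 8 in neither. Some counterparts were shared, since 32 members of both classes together overlapped a replicate 1 candidate that another member overlapped too, and 26 did so in replicate 2.

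Among members with both counterparts, the signals of the replicates had a Spearman rho of 0.397 over 111 snoRNA members and 0.537 over 25 snRNA members, against 0.237 over the 8642 such pooled candidates. The snRNA value split into 0.855 over 7 members at sls-2 genes, of which 2 at sls-2.2 have the same replicate values, and 0.181 over 18 members at other snRNA genes, below that of all such candidates. Some of these 18 also come in pairs at 1 gene with the same replicate values, as at C52E4.8, and so do some of the 111, as at C08D8.3. All these values are correlations across peaks of the same pair of libraries, and peaks are not replicates. The optimal snoRNA members leaned on replicate 1. Of the 12, 11 were within the top 414 of the replicate 1 list and 3 within the top 414 of the replicate 2 list. Over the whole optimal set the counts were 334 and 249 of 414. With replicate 1 left out, 3.06% of the replicate 2 summits beside snoRNA genes were in the top 414 of that list, and with replicate 2 left out the share in replicate 1 was 7.77%, against 1.38% of either list.

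**Figure D2:**
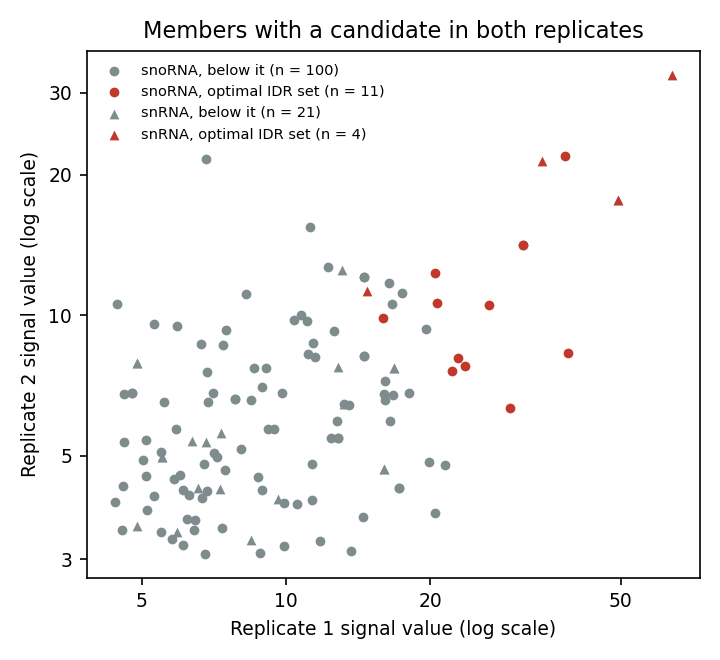
Signal in replicate 1 (x, log axis) and replicate 2 (y, log axis) of members with a candidate in both lists, circles for snoRNA and triangles for snRNA, red for the optimal set. The replicate lists have their own scales, so only order within an axis can be read; the sls-2 summit at the upper right is first among these members in both.

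The 3 highest snRNA members lay on sls-2 genes outside protein-coding genes. The summit of rank 15 lay inside sls-2.4, 92 bases past its start, at chrI:4172130-4172465. Its signal was 91.9 in the pooled list, 64.0 in replicate 1 and 32.8 in replicate 2, and it ranked 16 in each replicate. The nearest protein-coding 5′ end, 709 bp away, was that of egg-5, a gene needed at the egg-to-embryo transition.

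The summit of rank 55 (chrII:5543540-5543875) lay 1 base past the end of sls-2.2, with signals of 63.6 pooled, 49.3 in replicate 1 and 17.7 in replicate 2, and replicate ranks of 34 and 131. A second pooled summit at sls-2.2, rank 571 with a signal of 24.4, overlapped the same replicate candidates, so its replicate support is not separate. The sls-2.3 gene lies nearby on the other strand and has the rank 55 summit within 500 bp too. The summit nearest to sls-2.3 itself had a signal of 12.4 at rank 4786, and of the replicate lists that of replicate 1 alone held a counterpart. The summit of rank 68 (chrII:5844679-5845014) lay 18 bases upstream of sls-2.1, with signals of 59.8 pooled, 34.3 in replicate 1 and 21.4 in replicate 2, and replicate ranks of 105 and 80.

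Of the 18 sls-2 genes, those with a summit within 500 bp can be set in order by their strongest summit. The leader of sls-2.1 was shared by 4 genes, sls-2.1 to sls-2.4, and each of these had a summit of the optimal set within 500 bp, sls-2.2 and sls-2.3 the same one. Of the other 14 sls-2 genes, 10 had a summit and none was in the optimal set. The strongest of these were at sls-2.8 (rank 840, signal 20.9, 3 bases upstream of the gene), sls-2.16 (rank 2208, signal 15.3, inside the gene) and sls-2.9 (rank 3254, signal 13.8, 82 bases upstream), each in both replicate lists. Those of sls-2.14 (rank 6665), sls-2.7 (rank 13625) and sls-2.6 (rank 17642) were in replicate 1 only. Those of sls-2.17 (rank 19904), sls-2.5 (rank 22387) and sls-2.10 (rank 22502) were in replicate 2 only, and that of sls-2.18 (rank 27383) was in neither. The sls-2 class thus reached from rank 15 to rank 27383.

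The fourth snRNA member of the optimal set lay 46 bases upstream of F54D8.7, at rank 411 and so near the end of the set. Its signal was 28.3 pooled, 14.7 in replicate 1 and 11.3 in replicate 2, with replicate ranks of 812 and 552. The nearest protein-coding 5′ end, at 780 bp, was that of cox-6A, a subunit gene of cytochrome c oxidase. Next in rank came an intronic summit 381 bp downstream of smy-1 (rank 545, signal 24.9). This summit is only 13 bp from smy-2 and is 1 of the 2 members counted in both classes. By symbol smy-2 goes with smy-1, but its Ensembl biotype is snoRNA and that of smy-1 is snRNA. Its place in both classes thus rests on the biotypes. After this summit came F32B5.9 (rank 567, signal 24.5, 54 bases upstream, ranks 1195 and 380 in the replicates) and the second summit at sls-2.2.

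The snRNA genes often exist in near-identical copies, and this touches every optimal snRNA member. Within 100 bp of the summit, 87.1% of 32-base words at sls-2.4, 82.9% at sls-2.2, 61.2% at sls-2.1 and 82.4% at F54D8.7 occurred once in the genome. All words were unique for 34 of 58 snRNA members, 0 of the 4 optimal ones among them, against 188 of 209 snoRNA members with all 12 optimal ones, and 92.5% of all pooled candidates. The sources used here do not say how reads with several matches were treated, and the part of such reads in these signals was not tested. The sls-1 genes, which make the SL1 RNA in many copies, gave 0 of 12 genes with a summit within 500 bp. Over all snRNA genes it was 49 of 129 (38.0%), and 12 genes are few for a share. When snRNA genes were linked through pairs with at least 80% identity, the group that holds F54D8.7 had 23 genes. Of these 8 had a summit (34.8%), near the share of all snRNA genes. Of the 14-gene group of sup-39 and sup-6, 5 had one (35.7%, also near that share), with a median of 14732 for the rank of the best summit per gene. An annotated gene nested in sup-39 is among these 5 and has the same summit as sup-39, that of rank 14732. This summit thus counts for both genes and sets the median.

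The highest snoRNA member lay 249 bases upstream of F54E7.10 (chrIII:5678961-5679296), at rank 64 with signals of 60.8 pooled, 38.3 in replicate 1 and 21.9 in replicate 2. This snoRNA gene sits in rps-12, which encodes a protein of the small ribosomal subunit, and the summit was 169 bp upstream of the annotated start of rps-12 and 124 bp from that of ska-3, a gene of the kinetochore. The summit thus also counts as a promoter summit of both genes. Ribosomal protein hosts were taken by symbol alone (rpl, rps or rla), so any with another symbol counts among the other hosts. Of 13 such genes that hold a snoRNA gene on their strand, 6 had a summit within 500 bp of it, in 8 members. Apart from rps-12 these ranked between 438 (Y24D9A.9 in rpl-7A, 79 bp upstream of the host's start) and 27465 (F53G12.12 in rpl-7). Of 19 snoRNA genes in ribosomal protein hosts 8 had a summit, and of 164 in other hosts 82.

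The 5 intronic snoRNA members of the optimal set lay inside or within 47 bp of the snoRNA gene and 1097 to 5643 bp from the nearest protein-coding 5′ end. At ZK994.7 in pxn-1, a peroxidasin gene, the summit (chrV:8500364-8500699) was 47 bases upstream of the snoRNA gene and 5643 bp from the nearest protein-coding 5′ end, at rank 110. Its signal was 49.6 pooled, 38.8 in replicate 1 (rank 72) and 8.30 in replicate 2 (rank 1830). At C51F7.4 in frm-7, which encodes a FERM domain protein, it was inside the snoRNA gene at rank 170, with signals of 41.4 pooled, 26.5 in replicate 1 and 10.5 in replicate 2. At C08D8.3 in C08D8.1 it was also inside the gene, at rank 292, with signals of 33.0 pooled, 31.3 and 14.1 in the replicates. Replicate 1 had no summit within 100 bp of this summit. A second pooled summit, 197 bp downstream of C08D8.3 in a coding exon (rank 2744), overlapped the same replicate candidates. Replicate 1 did have a summit within 100 bp of that second summit. At C16D9.11 in rol-3, a receptor tyrosine kinase gene, the optimal summit was 32 bases upstream at rank 306. At W04D2.7 in inx-11, an innexin gene, it was 30 bases upstream at rank 348. In replicate 1 these last members ranked 275 and 291, and in replicate 2 they ranked 2009 and 2610. Replicate 1 thus ranked the overlapping candidate of all 5 higher than replicate 2 did, though at C08D8.3 that of replicate 1 had its summit elsewhere.

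Outside protein-coding genes, 6 snoRNA genes had a summit of the optimal set. The summit at W01H2.11 (rank 243) lay 417 bases upstream, with replicate ranks of 156 and 5086. At Y53F4B.47 (rank 247, 57 bases upstream) replicate 1 had a rank of 118 and replicate 2 had no overlapping candidate, and the start of cmtr-1, a cap methyltransferase gene, was 164 bp away. At F17C11.24 (rank 316) the summit was 83 bp downstream of the snoRNA gene, with replicate ranks of 350 and 398. At W06H8.17 (rank 324) it was 172 bases upstream, with ranks of 254 and 2358. At M7.15 (rank 326) it was 14 bases upstream and 602 bp from the start of klc-1, a kinesin light chain gene, with ranks of 644 and 874. Replicate 2 had no summit within 100 bp of the M7.15 summit. At C16D9.10 (rank 401) it was 9 bp downstream, with ranks of 338 and 684. Just below the optimal set came Y37E3.20 in pcyt-2.1 (rank 425, signal 28.0), F39B2.14 in tmem-107 (rank 427, signal 28.0) and Y24D9A.9 in rpl-7A (rank 438, signal 27.6), each in both replicate lists. The last 2 summits also count as promoter summits of their hosts, 29 bp upstream of the start of tmem-107 and 79 bp upstream of that of rpl-7A.

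By host, 99 snoRNA members lay beside a gene inside a protein-coding gene on the same strand, 87 beside a gene outside protein-coding genes and 23 beside a gene on the strand opposite to its host. The optimal set held 6 (6.06%), 6 (6.90%) and 0 of them, against 1.48% of all pooled candidates, and their median signals were 10.7, 11.3 and 10.8, which lay close together. In the snRNA class the split was wider, with 4 of 26 members outside protein-coding genes in the optimal set (15.4%), 0 of 20 in hosts on the same strand and 0 of 12 on the opposite strand, and median signals of 10.3, 8.28 and 8.07. The counts of 0 allow shares of up to 13.0% for the 23 snoRNA members and 15.0% for the 20 snRNA members on the same strand (3 counts of the total), and more for the 12 on the opposite strand, all above the 1.48% of the whole list. By gene, 183 of 346 snoRNA genes (52.9%) and 49 of 129 snRNA genes (38.0%) had a summit within 500 bp. The genes with an optimal summit there numbered 13 (3.76%) and 5 (3.88%). No share over all genes was counted with the same 500 bp window. At promoters of all protein-coding genes, from 1000 bp upstream to 200 bp downstream, 37.0% had any candidate and 1.38% an optimal summit. The spans differ, so those shares give only a rough scale.

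Chromosome V held 8 of the 12 optimal snoRNA members, and 38 of the 209 members and 55 of the 346 snoRNA genes. The optimal share was 21.1% for snoRNA members of that chromosome, against 1.44% for all pooled candidates on it. The other chromosomes held 0 or 1 optimal snoRNA member each. These 8 summits were at different genes, of which 5 are named above within hosts.

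The members were also counted within each kind of position relative to protein-coding gene models. In introns 5 of 70 snoRNA members (7.14%) and 0 of 24 snRNA members (which allows up to 12.5%) were in the optimal set, against 1.01% of all pooled candidates in introns. In intergenic sequence 7 of 93 snoRNA members (7.53%) and 4 of 24 snRNA members (16.7%) were in it, against 2.69%. In coding exons it was 0 of 31 snoRNA and 0 of 9 snRNA members, which allows shares of up to 9.68% and 33.3%, against 0.0929%. At promoters, from 1000 bp upstream to 200 bp downstream of a protein-coding transcript start, lay 69 snoRNA members (33.0%) and 26 snRNA members (44.8%), against 28.8% of all pooled candidates. Of these, 4 snoRNA members (5.80%) and 3 snRNA members (11.5%) were in the optimal set, against 2.66% of all pooled candidates at promoters. Outside promoters it was 8 of 140 snoRNA members (5.71%) and 1 of 32 snRNA members (3.12%), against 0.999%.

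Summits were most frequent just before the RNA gene. In the 100 bp upstream of the 5′ end lay 49 snoRNA summits, and the 100 bp on either side of that bin held 29 each. Of the 49, 19 (38.8%) were within ranks 1 to 2000 and 5 in the optimal set, against 39 (24.4%) and 7 of the other 160 snoRNA members and 7.14% of all pooled candidates within those ranks. Over 200 bp upstream the contrast was smaller, with 24 of 78 snoRNA members (30.8%) within ranks 1 to 2000, against 34 of the other 131 (26.0%). In the snRNA class 14 of 58 summits lay in the 100 bp upstream, 5 of them (35.7%) within ranks 1 to 2000 and 2 in the optimal set, against 5 (11.4%) and 2 of the other 44. Over 200 bp upstream it was 5 of 18 (27.8%), against 5 of the other 40 (12.5%). The median gene length was 130 bp for snoRNA and 109 bp for snRNA genes.

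**Figure D3:**
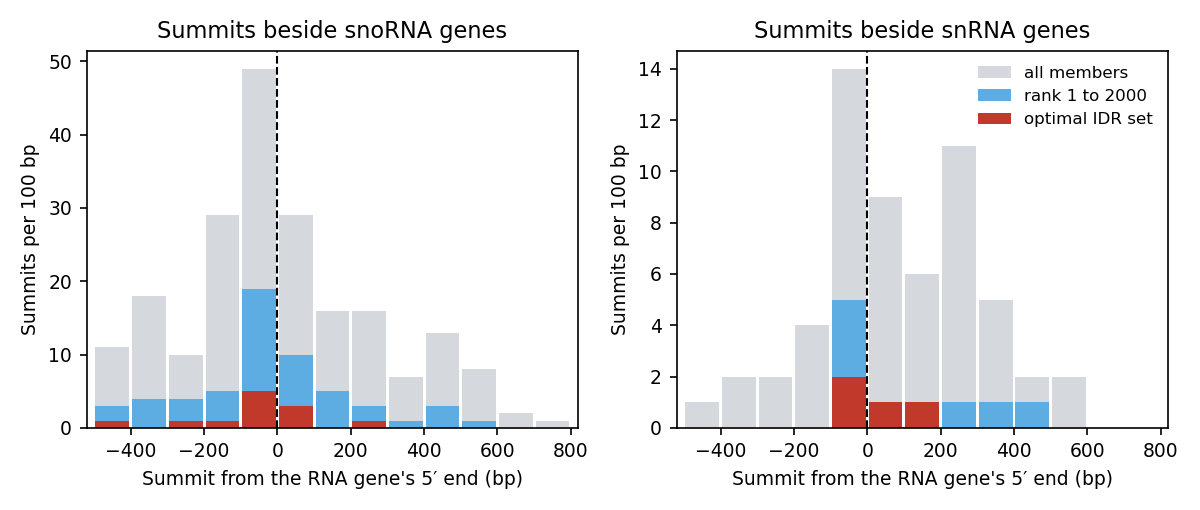
Number of summits per 100 bp by distance from the 5′ end of the nearest RNA gene (x, bp, negative is upstream), beside snoRNA genes on the left and snRNA genes on the right; grey bars are all members, blue those of rank 1 to 2000 and red the optimal set, each drawn from 0. The tallest bin of both classes is the 100 bp upstream, with 49 and 14 summits.

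The paired letters shown above were found, on either strand within 100 bp of the summit, in 11 of 209 snoRNA members (5.26%) and 7 of 58 snRNA members (12.1%), against 84 of 28005 pooled candidates (0.30%). Among the 11 snoRNA members were 4 of the 12 optimal ones, at ZK994.7, Y53F4B.47, C16D9.11 and W04D2.7. Over the whole optimal set 5 of 414 (1.21%) had the letters. Of the 11, 8 were within ranks 1 to 2000 and 10 were in both replicate lists, against 27.8% and 53.1% of all snoRNA members. The 7 snRNA members had 1 within ranks 1 to 2000, that at sls-2.8, and 3 in both replicate lists, against 17.2% and 43.1% of all snRNA members. None of the 4 optimal snRNA members had the letters in this exact form, and none of the genes sls-2.1 to sls-2.4 had them in the 100 bp upstream, while 9 of the 18 sls-2 genes did. Beside neither class were 66 candidates with the letters, 1 of them in the optimal set.

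The same letters can be counted by place and by gene. They were picked from sequences upstream of members, which have a summit by definition. The contrasts below were therefore partly set by that choice and are descriptions only. The genome held 1544 matches, of which 47 lay within 100 bp upstream of a snoRNA or snRNA gene. A summit lay within 100 bp of 17 of the 47 (36.2%), against 80 of the 1497 matches elsewhere (5.34%), and a summit of rank 1 to 2000 within 100 bp of 9 (19.1%), against 5 (0.334%). Of the 8 snoRNA genes with the letters in a host on the same strand, 7 had a summit within 500 bp, 6 one of rank 1 to 2000 and 3 one of the optimal set. Of the 175 such genes without them, the counts were 83, 20 and 4. The 7 and the 6 include smy-2. Its only summit, of rank 545, lay 13 bp downstream of the gene and did not have the letters within 100 bp. Outside protein-coding genes the contrast was small, with 3 of 12 genes with the letters and 25 of 118 without having a summit of rank 1 to 2000. Any summit lay at 6 of these 12 and 68 of these 118 genes, and an optimal one at 1 and 5. Of the 25 snRNA genes with the letters, 15 had a summit within 500 bp (60.0%), 2 one of rank 1 to 2000 and 0 one of the optimal set. Of the 104 without, the counts were 34 (32.7%), 8 and 5. The 25 and the 15 include both sup-39 and an annotated gene nested in it, which have the same summit. The 2 of rank 1 to 2000 include smy-1, through the same rank 545 summit as smy-2, 381 bp from smy-1. The letters resemble the proximal sequence element known from nematode snRNA genes, and a match is a description of the sequence and not a site. C07A9.14, F01D5.12 and T19C4.12, printed above, are named for carrying them and were chosen after their values were seen, with ranks of 594, 661 and 2123.

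**Figure D4:**
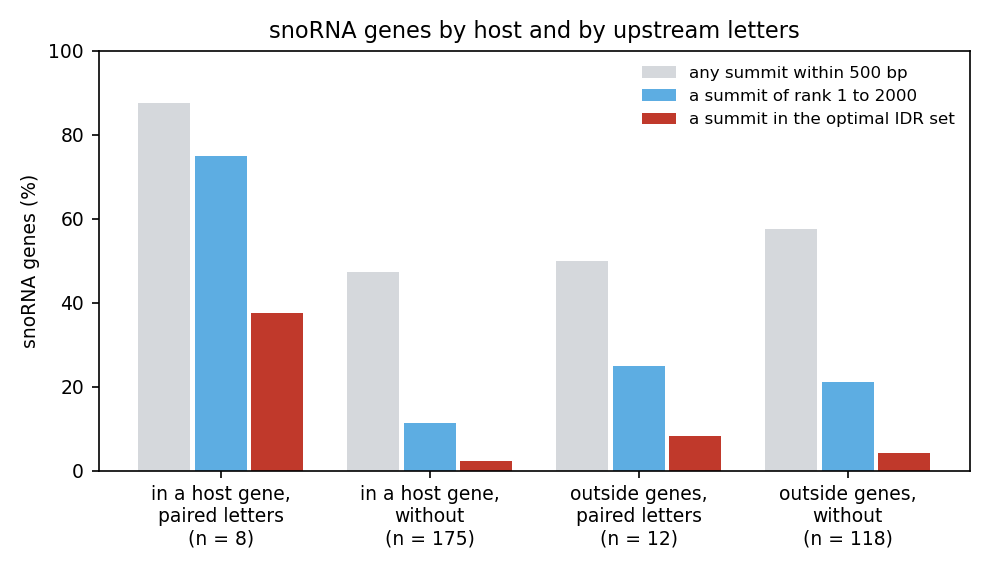
Percent of snoRNA genes (y, from 0) with any summit within 500 bp (grey), with a summit of rank 1 to 2000 (blue) and with a summit of the optimal set (red), for genes inside a protein-coding gene on the same strand or outside protein-coding genes, with and without the paired letters in the 100 bp upstream. The 8 hosted genes with the letters stand highest in all 3 measures, with 7, 6 and 3 of 8 genes. The 7 and the 6 include smy-2, whose summit did not have the letters within 100 bp. The letters were picked from sequences upstream of members, so this contrast was partly set by that choice.

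C51F7.4 carried other letters. It is shown whole on its plus strand, chrV:12303599-12303693, with a match to GTTCGANNC in capitals, letters known from the B box of tRNA genes and picked after this sequence was seen.
C51F7.4: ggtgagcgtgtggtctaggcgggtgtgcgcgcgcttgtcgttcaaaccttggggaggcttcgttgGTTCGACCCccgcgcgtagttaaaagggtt
A match to these letters on either strand within 100 bp of the summit was found in 15 of 209 snoRNA members (7.18%) and 3 of 58 snRNA members (5.17%), against 1.79% of all pooled candidates. In the optimal set they were 1 snoRNA member, C51F7.4, from which the letters were picked, and 1 snRNA member, F54D8.7. Over the whole optimal set 7 of 414 (1.69%) had a match. The 15 snoRNA members ranked from 170 to 27508.

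Neither motif of UNC-62 and its partners was above the whole list in both classes. TGACAG, the core bound by MEIS proteins, was within 100 bp of the summit on either strand in 7.66% of snoRNA members and 5.17% of snRNA members, against 7.97% of all pooled candidates. TGATNNAT, a composite of PBC and Hox proteins, was in 14.8% of snoRNA members and 24.1% of snRNA members, against 16.9%. GAGAGA, a GA repeat not tied here to UNC-62 or a partner, was in 19.1% of snoRNA members and 10.3% of snRNA members, against 14.6%. It was in 4 of the 12 optimal snoRNA members and 0 of the 4 optimal snRNA members, against 50.7% of the optimal set. TGATGA, the core of the snoRNA C box and so part of many of these genes, was in 19.1% and 15.5%, against 17.0%. The median GC content of the same windows was 39.8% for snoRNA and 38.8% for snRNA members, against 36.3%.

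The promoters of genes for the protein partners of these RNAs were counted too. Any pooled candidate lay at 6 of 8 genes for snoRNP proteins, 8 of 20 matched genes for snRNP and trans-splicing proteins (40.0%) and 1 of 8 snpc genes (12.5%), which encode SNAPc subunits, against 37.0% of all protein-coding genes. An optimal summit lay at none of these 3 lists, which allows shares of up to 37.5%, 15.0% and 37.5%, and with 1.38% over all protein-coding genes lists of this size are too short to show a difference. The highest, named after their values were seen, were at nol-56 (rank 691, signal 22.8), fib-1 (rank 861, signal 20.7) and snr-3 (rank 917, signal 20.1). They encode a box C/D snoRNP protein, the methyltransferase fibrillarin and a Sm protein of the snRNPs. The nol-56 summit is itself a snoRNA member, 387 bases upstream of K07C5.11. At snr-4, another Sm protein gene, the promoter summit of rank 1496 was also 77 bp downstream of the snRNA gene C52E4.8.

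The 500 bp limit did not fall at a gap in the distances, and 153 snoRNA and 51 snRNA summits lay within 250 bp and 311 and 82 within 1000 bp. Just inside the limit were the snoRNA members at C30C11.15 (492 bp, rank 2813), C10C6.8 (486 bp, rank 11032) and B0379.12 (485 bp, rank 21017). Just outside were candidates at C25F6.30 (501 bp, rank 6035), C06A1.9 (504 bp) and F39B2.14 (511 bp, rank 27772). That at C06A1.9 ranked 7 with a signal of 107 and was 161 bp from the start of cdc-48.1, a gene for an AAA ATPase. For snRNA genes the last inside were at sls-2.8 (469 bp, rank 22696), T08B6.62 (431 bp, rank 26586) and C35D6.6 (426 bp, rank 21957). The next outside were at sls-2.15 (503 bp, rank 22814), C53D6.16 (523 bp, rank 16474) and sls-2.10 (532 bp, rank 17335), and none of these 6 was in the optimal set.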

How the data were processed

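The authors deposited narrowPeak lists for 2 replicates, a pooled candidate list and an optimal IDR list, on builds ce11 and ce10, and only the ce11 lists were used. The deposited signal value of each peak was made by the authors against a control file, per the labels and accompanying notes. The lists do not share a scale, and the value served here to describe and rank peaks inside 1 list. The sources used here name no aligner, peak caller, IDR threshold or read depth. The control library was not analysed here. Pooled candidates numbered 28005 and each replicate list 30000.

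Summits were compared with the WBcel235 annotation (Ensembl release 115). RNA gene names are those of RefSeq, matched by WormBase identifier for all 475 genes, since 36 had another name in Ensembl. A host is a protein-coding gene whose span holds the RNA gene. Replicate support is an overlap of at least 1 bp, taking the candidate with the highest signal. Motifs and 32-base words were read within 100 bp of the summit. Groups of snRNA genes were linked at 80% identity with edlib 1.3.9.post1. Python 3.11.15, pandas 2.3.3 and scipy 1.17.1 were used, and the distance, overlap, host and motif steps were tested on simulated data.

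With 1 group there was nothing to test between conditions, so counts and medians stand beside those of all pooled candidates, which include the members. Peaks are not replicates. The members, gene lists and motifs were chosen with earlier results of these data known, and the paired letters and GTTCGANNC after the sequences were read. Named genes are those nearest to optimal members, the next 3 of each class, every sls-2 gene with a member, those around the 500 bp limit, and their hosts. The 3 snoRNA genes shown for the paired letters, the ends of the range in ribosomal protein hosts, sup-39 and sup-6 as names of a gene group, and the genes of protein partners with the RNA genes beside them fall outside this rule and were chosen after their values were seen. Of 22 listed snRNP and trans-splicing proteins 20 were matched. The sequence at 1 snRNA member is not reported here.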

Additional observations from a re-analysis of the deposited data

How the results depend on the processing

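Over 14 results and 56 alternatives, 46 values stayed within the main value's counting interval or 1.5 times the main count. With the peak itself required to overlap the RNA gene, snoRNA members numbered 138. Counting only the optimal peaks above the middle of that set by signal left 1.44% of snoRNA members, against 0.739% of all pooled candidates. Among the 34 snRNA members with every 32-base word unique, 0% were in the optimal set, which allows up to 8.82%. With replicate summits required within 100 bp, support in both lists was 32.1% for snoRNA and 19.0% for snRNA members, against 15.8% of all pooled candidates. GAGAGA was in 9.57% of snoRNA members within 50 bp and 32.1% within 200 bp, against 8.01% and 24.6% of all pooled candidates, and in 25.9% of snRNA members within 200 bp. TGACAG was in 12.9% of snoRNA members within 200 bp, against 14.8%. The loosest form of the paired letters, CCG and GTC 6 bases apart, was in 22 snoRNA members and 3.24% of all pooled candidates; it and 2 other forms, and taking the strongest summit per RNA gene, were chosen after seeing the data. With 1 replicate list left out, the share of members in the top 414 of the other ran from 3.06% to 7.77% for snoRNA and from 7.14% to 9.80% for snRNA members, against 1.38% of a replicate list. Of the 46, 5 moved by over 1.5 times. These were the snoRNA value without replicate 1 (3.06%, main 5.74%), the optimal share of snRNA members outside promoters (3.12%, main 6.90%), GAGAGA within 50 bp of snRNA summits (5.17%, main 10.3%) and TGACAG within 50 and 200 bp of them (1.72% and 10.3%, main 5.17%). No paired analysis was possible because the series has 1 group. Read depth is unknown, and the cause of these shifts was not tested.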
